A study of Mus musculus with 2 samples.

Results

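Divergent promoter pairs are pairs of genes that lie head to head, so that transcription starts from nearby points and runs outwards on opposite strands. They were taken here as protein-coding genes of GENCODE vM21 (mm10) on chromosomes 1 to 19, with the start of the minus-strand gene before that of the plus-strand gene and the starts at most 1000 bp apart. This gave 734 pairs of 1448 genes, which is 6.96% of the 20807 protein-coding genes on these chromosomes, and 20 genes belonged to 2 pairs. A start was the 5′ end of the annotated gene as a whole, which need not be the start used in these cells. The region of a pair was the span between the starts plus 500 bp on each side, and a peak belonged to a pair when its summit lay in that region. Of the 116782 ATAC-seq peaks in the list, 674 did so.

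The libraries came from mouse embryonic stem cells (mESCs) of the KH2 parental line, labelled a BL6/129 hybrid and described in the methods as a C57BL/6J x 129S1 F1, in which both endogenous Ehmt2 alleles carry a degron tag (FKBP12F36V) with HA and mCherry. EHMT2 is the histone methyltransferase, also called G9a, that places H3K9me2. The cells were treated with DMSO, the vehicle, for 24 h, and 2 independent clones were sampled with 50000 cells each. The protein was therefore tagged but not depleted in every library, and no untagged line and no degrader treatment was part of the comparison. The study grew its mESCs in FBS and LIF on mouse embryonic fibroblast feeders, which carry open chromatin of their own. The deposited peak list merges both clones, so no value below has a replicate error and no test between groups was possible. Of 10 mESC marker genes, 7 had a peak summit within 500 bp of the start, with fold enrichments from 2.83 at Pou5f1 to 15.9 at Zfp42, and Fgf4, Tdgf1 and Esrrb had none, while 2 of 10 fibroblast markers did, Thy1 with 5.45 and Prrx1 with 2.68. The share over all protein-coding starts was 58.5%, so the count of mESC markers is near that of any set of starts.

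In a divergent pair, the stretch between the starts serves as the promoter of both genes. Such pairs are common among housekeeping genes, in particular those of DNA repair and of mitochondria, and most lie in CpG islands, which are stretches of DNA rich in unmethylated CpG that stay free of stable nucleosomes. In ATAC-seq, the Tn5 transposase cuts accessible DNA, so an active promoter appears as a peak over the nucleosome-free stretch upstream of the start and around it.

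The spans between the starts of 7 pairs are printed here, since the values of these pairs recur in the results. The first 4 belong to the pairs of highest fold enrichment, Mrps12/Sars2 has the most CCAAT boxes among them, and C2/Ehmt2 holds the gene tagged in these cells. Col4a4/Col4a3 is a textbook shared promoter whose fold enrichment here was low beside that of most pairs. Each is the GRCm38.p6 (mm10) reference, plus strand, 5′ to 3′, with the minus-strand gene on the left. Capitals mark exact matches, on either strand, to the short sequence cores of NFY, SP/KLF, CRE and E-box, whose letters are given with the search for cores.
Rpgrip1l/Fto, chr8:91313263-91313524: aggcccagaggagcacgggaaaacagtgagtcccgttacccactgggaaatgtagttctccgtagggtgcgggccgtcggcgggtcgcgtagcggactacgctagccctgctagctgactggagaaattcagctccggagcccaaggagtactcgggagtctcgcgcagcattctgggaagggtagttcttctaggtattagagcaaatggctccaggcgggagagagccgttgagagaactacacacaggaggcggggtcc
Larp7/Zgrf1, chr3:127553350-127553488: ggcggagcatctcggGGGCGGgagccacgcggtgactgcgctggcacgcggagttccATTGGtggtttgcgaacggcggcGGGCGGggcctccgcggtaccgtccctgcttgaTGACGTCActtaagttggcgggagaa
Esf1/Ndufaf5, chr2:140170565-140170648: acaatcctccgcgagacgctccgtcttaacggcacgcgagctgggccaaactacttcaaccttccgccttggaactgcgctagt
Ccdc146/Fam185a, chr5:21424678-21424957: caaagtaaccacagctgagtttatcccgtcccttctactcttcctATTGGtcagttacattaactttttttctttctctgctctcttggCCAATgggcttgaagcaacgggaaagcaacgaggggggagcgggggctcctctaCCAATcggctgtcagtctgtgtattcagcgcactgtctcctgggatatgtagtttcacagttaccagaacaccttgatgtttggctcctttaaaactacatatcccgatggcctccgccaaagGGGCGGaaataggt
Mrps12/Sars2, chr7:28741821-28741991: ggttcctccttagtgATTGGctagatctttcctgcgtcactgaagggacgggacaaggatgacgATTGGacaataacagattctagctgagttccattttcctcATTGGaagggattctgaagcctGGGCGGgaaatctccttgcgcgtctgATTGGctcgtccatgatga
C2/Ehmt2, chr17:34898266-34898468: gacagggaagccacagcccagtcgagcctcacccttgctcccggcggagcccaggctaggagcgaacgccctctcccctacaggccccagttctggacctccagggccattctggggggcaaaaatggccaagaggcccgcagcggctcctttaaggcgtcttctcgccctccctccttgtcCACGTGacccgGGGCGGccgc
Col4a4/Col4a3, chr1:82586850-82586920: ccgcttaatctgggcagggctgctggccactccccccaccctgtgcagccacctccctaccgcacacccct
The spans of Rpgrip1l/Fto and Esf1/Ndufaf5, whose peaks were among the 3 of highest fold enrichment, held none of the 11 cores searched. This covers the spans only and not the rest of the peaks, and the summit of Esf1/Ndufaf5 lay 73 bp outside its span. The span of Mrps12/Sars2 held 5 cores.

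A peak was found at nearly every pair. Of the 734 pairs, 688 (93.7%) had a summit in the region, namely 682 with 1 and 6 with 2. Counted by start, 1312 of the 1448 paired starts (90.6%) had a summit within 500 bp. The same window held a summit at 56.1% of the 19359 protein-coding starts outside pairs and at 58.5% of all 20807. The pairs made up 6.04% of the 11159 distinct peaks within 500 bp of a protein-coding start. In 657 of the 688 pairs (95.5%), the strongest peak, which is the peak of highest fold enrichment in the region, covered both starts. These peaks had a median width of 1061 bp and the starts a median distance of 128 bp, so this share is largely set by peak width. Some pairs lie next to each other and share the strongest peak, and the 688 pairs had 668 distinct strongest peaks.

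Peaks at pairs were also stronger than peaks at other starts. Fold enrichment is the number of fragments stacked at the summit divided by the number in the local background, after 1 is added to each. Its median over the 668 strongest peaks was 10.5 (quartiles 8.06 and 13.3, range 2.16 to 23.0), against 8.33 (quartiles 5.83 and 11.4) over 10468 distinct peaks at other starts and 3.98 over all peaks. The median pair exceeded 93.2% of all peaks, and 63.3% of the pair peaks stood in the top 10% of the list by fold enrichment, against 41.1% of the peaks at other starts. The fragment number over the summit, recovered from fold enrichment and p-value together, had a median of 48 at pairs, 31 at other starts and 9 over all peaks. The local background was also higher at pairs, with a median of 3.54 fragments against 2.86 at other starts. The median −log10 q-value was 32.4 at pairs and 19.5 at other starts, and a value of at least 10 was reached at 609 pairs (88.5%) and at 72.6% of the peaks at other starts. Peak width differed little, with medians of 1061 bp and 1012 bp.

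**Figure D1:**
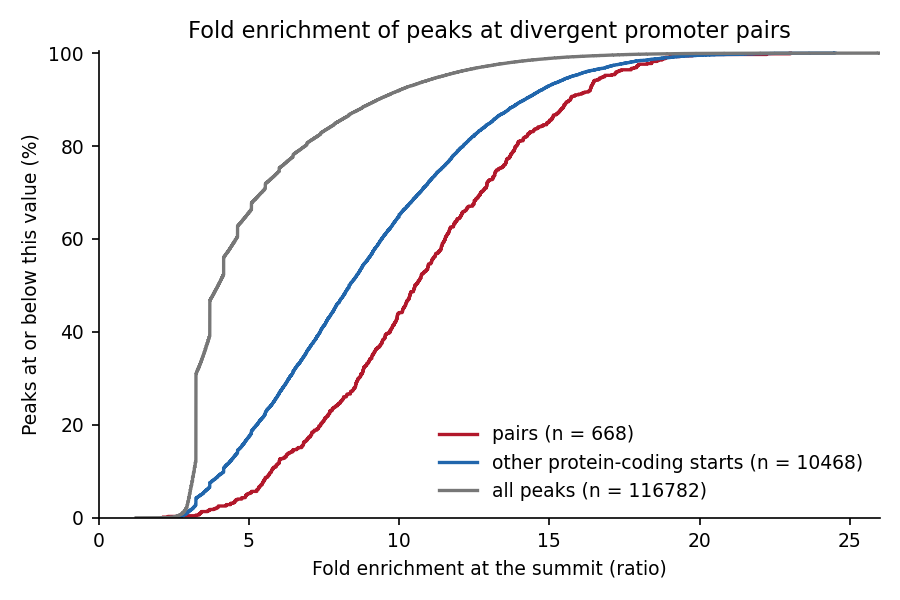
Cumulative share of peaks (y axis, percent) by fold enrichment at the summit (x axis, ratio) for the strongest peaks of pairs, of other protein-coding starts and for all peaks. The curve of the pairs lies to the right of the others, with medians of 10.5, 8.33 and 3.98.

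The 5 pairs of highest fold enrichment joined genes of unrelated functions. Rpgrip1l/Fto stood first with a fold enrichment of 23.0 and 232 fragments over the summit (95% Poisson interval 203 to 264, which covers counting error only). Rpgrip1l encodes a protein of the ciliary transition zone and Fto an RNA demethylase. Larp7/Zgrf1, a 7SK RNA-binding protein and a DNA helicase, followed with 22.2 and 152 fragments (129 to 178). Esf1/Ndufaf5, a factor of rRNA processing and an assembly factor of respiratory complex I, had 19.97 and 150 fragments (127 to 176). The intervals of the fragment numbers of these last 2 pairs overlap almost fully, so their order is within counting error. Rpgrip1l/Fto and Larp7/Zgrf1 differed in background, with 9.12 and 5.88 fragments, so their fragment numbers do not settle their order in fold enrichment. Ccdc146/Fam185a had a fold enrichment of 19.8 and 148 fragments (125 to 174), not told apart from Esf1/Ndufaf5 by counting. Mphosph10/Mcee, a component of the U3 snoRNP and a methylmalonyl-CoA epimerase, had 19.4. The widest strongest peaks were not the strongest. They lay at Hnrnpa2b1/Cbx3 (2509 bp, fold enrichment 9.49), which encode an RNA-binding protein and the heterochromatin protein HP1γ, at Sobp/9030612E09Rik (2418 bp, 5.66), Zbtb25/Zbtb1 (2242 bp, 4.87), Taf5l/Urb2 (2225 bp, 8.15) and Zfp91/Lpxn (2109 bp, 8.04). Across the 688 pairs, fold enrichment and width were nearly unrelated (Pearson r = −0.0462, Spearman rho = −0.0347), with the pairs of 1 merged library as points.

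The starts of a pair were mostly close together. The distance between them had a median of 128 bp (quartiles 66.2 and 240.0 bp) and ran from 1 to 987 bp. The share of pairs with a peak was 94.1% of 306 pairs at up to 100 bp, 93.0% of 200 at over 100 to 200 bp, 94.8% of 96 at over 200 to 300 bp, 64 of 64 at over 300 to 500 bp and 86.8% of 68 at over 500 to 1000 bp. Median fold enrichment over the same bins was 10.3, 11.0, 11.4, 12.1 and 8.73. It was thus highest at 300 to 500 bp and lowest in the most distant pairs. The median fragment number was likewise highest at 300 to 500 bp, with 40, 51, 57, 69 and 40. Across all 688 pairs, distance and fold enrichment had a Pearson r of −0.0283 and a Spearman rho of 0.0837. Peak width rose more evenly with distance, from a median of 1026 bp at up to 100 bp to 1288 bp at over 500 bp (Pearson r = 0.154, Spearman rho = 0.170).

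**Figure D2:**
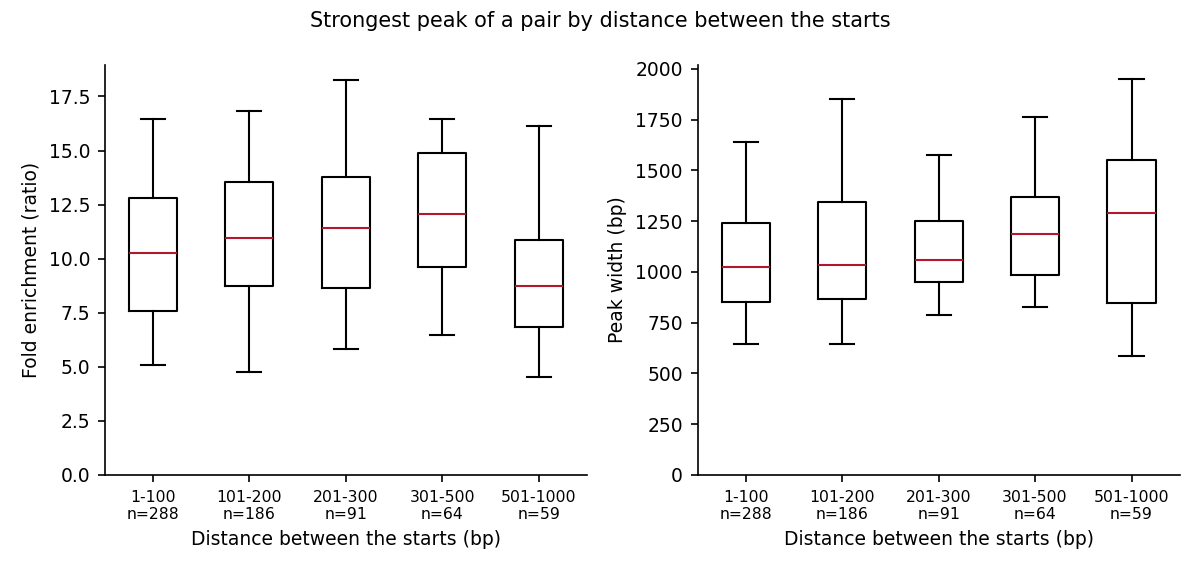
Fold enrichment (left, ratio) and width (right, bp) of the strongest peak in 5 bins of the distance between the starts (x axis, bp). Boxes span the quartiles with the median as a line and whiskers reach the 5th and 95th percentiles. The median fold enrichment is highest at 300 to 500 bp (12.1) and lowest at over 500 bp (8.73).

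The shortest pairs with a peak differed in level. Bag4/Lsm1, a chaperone regulator and an mRNA decay factor with starts 1 bp apart, had a fold enrichment of 16.4 and 94 fragments (76.0 to 115). Slc7a6os/Prmt7, also 1 bp apart, had 7.84 and 28 fragments. The next shortest pairs with a peak were Dhrs1/Nop9 at 3 bp (4.24, 9 fragments), Bag5/Apopt1 at 4 bp (6.25, 17) and Wdr54/1700003E16Rik at 7 bp (6.30, 16). Of these 5 pairs, only Bag4/Lsm1 was above the lower quartile of the pair peaks, 8.06. At the other end, the pairs just inside 1000 bp were Asphd1/Sez6l2 at 981 bp (7.09) and Btf3l4/Txndc12 at 987 bp (8.24), and those just outside were Gpr108/Trip10 at 1009 bp (2.99) and Sgsm2/Tsr1 at 1011 bp (7.03). Of the 10 pairs at over 900 to 1000 bp, 9 had a peak, and of the 11 at over 1000 to 1100 bp, 9 did.

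Separate peaks for the 2 starts were rare and found only among distant pairs. All 6 pairs with 2 peaks had starts at least 542 bp apart, and their summits lay at least 875 bp from each other. The strongest peaks of pairs had a median width of 1061 bp, so closer starts would mostly lie under 1 peak. The rarity of separate peaks is thus largely set by peak width and does not show that close starts share 1 open stretch. At Zfyve26/Rad51b, the latter a gene of homologous recombination, the summits lay 47 bp and 91 bp to the right of the starts, with fold enrichments of 9.96 and 9.92 and 47 and 46 fragments. These peaks were thus equal within counting error. At Fhod1/Slc9a5, the summits lay 22 bp and 24 bp to the right of their starts, with 5.91 and 3.14 and with 55 (41.4 to 71.6) and 29 (19.4 to 41.6) fragments. Urod/Hectd3 had 4.97 and 4.10, Cfap52/Stx8 had 5.82 and 8.45, and Tomm6/Frs3 had 9.24 and 4.49. Even at over 500 bp, 55.9% of the strongest peaks covered both starts.

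The summit mostly lay near the middle of the pair, but in most pairs it was not between the starts. It was within 100 bp of the midpoint in 367 pairs (53.3%) and within 200 bp in 556 (80.8%), with a median distance of 93.8 bp. It fell between the starts in 257 pairs (37.4%), a stretch that made up on average 14.3% of the region. The share between the starts was 7.99% at up to 100 bp, 39.2% at 100 to 200 bp, 76.9% at 200 to 300 bp, 85.9% at 300 to 500 bp and 61.0% at over 500 bp, where the stretch between the starts made up 5.38%, 12.8%, 19.9%, 26.9% and 40.8% of the region. With respect to the gene, the median summit was 30 bp downstream at 10857 other starts. No such comparison is drawn for paired starts, because a summit at a pair lies upstream of at least 1 of its starts by the arrangement itself.

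The sides of the pair were not alike. The summit was to the right of the plus-strand start in 285 pairs (41.4%) and to the left of the minus-strand start in 146 (21.2%), and it was nearer the plus-strand start in 407 pairs and nearer the minus-strand start in 281. Up to 500 bp between the starts, the median distance from the minus-strand start was steadier than that from the plus-strand start. It was 95.5 bp to the right at up to 100 bp between the starts, 132.5 bp at 100 to 200 bp, 131 bp at 200 to 300 bp and 140.5 bp at 300 to 500 bp. Beyond 500 bp it was 210.0 bp with a wide spread (quartiles 56 and 667 bp). Single pairs at up to 100 bp varied about as much from either start. The quartiles there were −39.25 and 131 bp from the minus-strand start and −88 and 76 bp from the plus-strand start. Over these bins, the median position of the summit with respect to the plus-strand start went from 34.5 bp to the right to 24 bp, 120 bp and 216 bp to the left, and was 396 bp to the left beyond 500 bp. At 300 to 500 bp, 44 of 64 summits thus lay on the minus-strand side of the midpoint, against 97 of 288 at up to 100 bp. A shift to the right was present at other starts as well. The summit had a median position 46 bp to the right of 5496 plus-strand starts, downstream, and 32 bp to the right of 5361 minus-strand starts, upstream. Centres of the peaks did not show it, with a median 65.5 bp to the right of other plus-strand starts and 101.5 bp to the left of other minus-strand starts, and with a median 22.8 bp to the left of the midpoint at pairs. The cause of this displacement of summits was not tested.

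**Figure D3:**
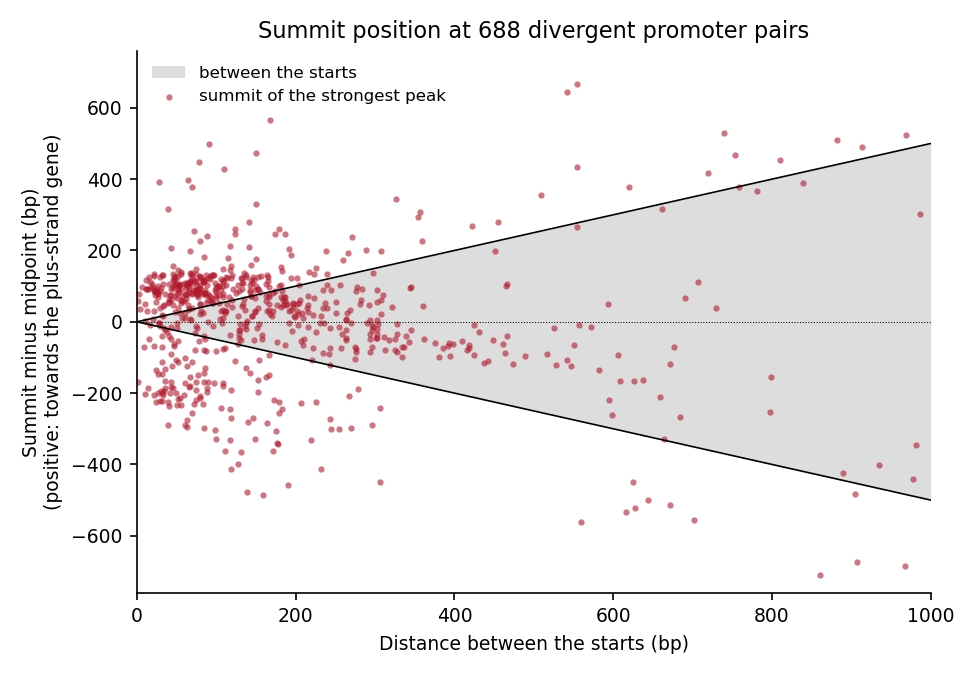
Position of the strongest summit with respect to the midpoint (y axis, bp, positive towards the plus-strand gene) against the distance between the starts (x axis, bp), 1 point for each of 688 pairs. The grey wedge is the stretch between the starts, which holds 257 of the summits, and above 300 bp most points lie inside it and most lie below the midpoint.

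The DNA of the pairs was rich in CpG. In the 300 bp around the strongest summit, the median ratio of observed to expected CpG was 0.857 and the median GC content 63.7%, against 0.786 and 64.7% at other starts with a peak. The difference in fold enrichment was present within the classes of CpG content from 0.2 upwards. With a CpG ratio of 0.6 to 0.8 in the 300 bp around the start, 91.7% of 385 paired starts and 85.1% of 3346 other starts had a peak, with a median fold enrichment of 11.0 and 8.78. At 0.8 to 1.0, the shares were 96.4% and 90.8%, with 11.1 and 9.30. At 0.4 to 0.6, they were 78.7% of 94 paired starts and 63.6% of other starts, with 10.3 and 7.27. Below 0.2, where the promoter is no CpG island, 3 of 28 paired starts (10.7%) and 8.08% of other starts had a peak, with a median fold enrichment of 4.39 and 4.49, so neither the share nor the level was much apart there. Among pairs with a peak, CpG ratio and fold enrichment were nearly unrelated (Pearson r = 0.0401, Spearman rho = 0.00495, n = 688), and GC content and fold enrichment had a Pearson r of −0.143 and a Spearman rho of −0.143.

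**Figure D4:**
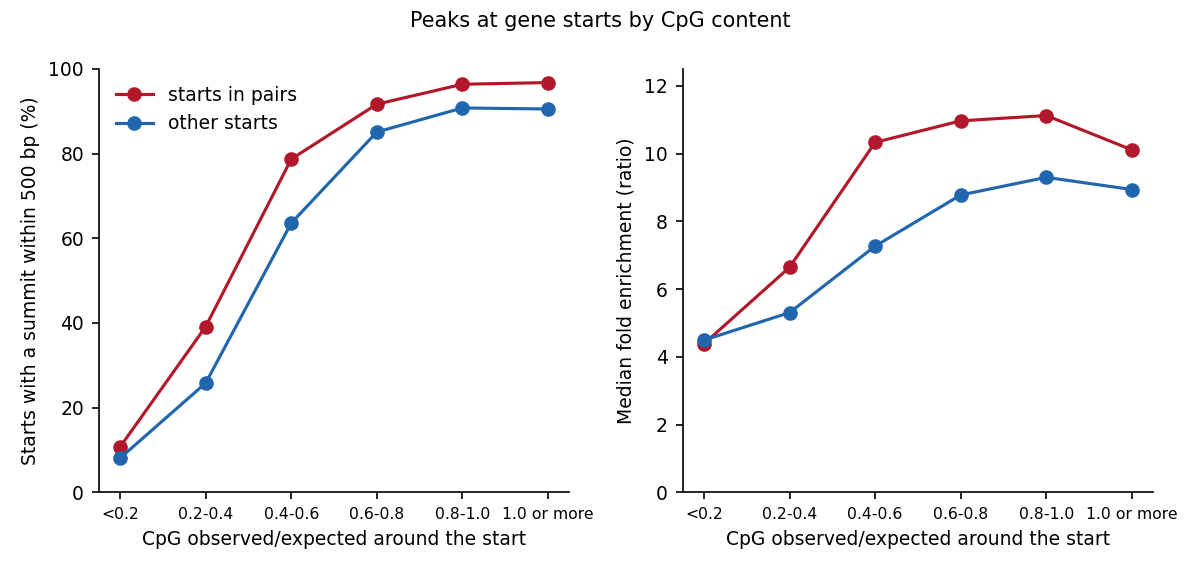
Share of starts with a peak summit within 500 bp (left, percent) and median fold enrichment (right, ratio) by the ratio of observed to expected CpG in 300 bp around the start (x axis), for starts in pairs and other starts. Paired starts lie above other starts in both panels in the 5 bins from 0.2 upwards, and the curves meet below 0.2.

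A set of 11 short cores of factors known to bind promoters was searched, as exact letters on both strands, in the 300 bp around the strongest summit. None of these cores contains another. The ETS core CCGGAAG was found at 26.7% of the 688 pairs and 15.8% of 10857 other starts with a peak. The ZBTB33 core TCTCGCGAG was at 3.05% and 1.198%, the NRF1 core GCGCATGCG at 4.80% and 2.73%, and the YY1 core AAGATGGCG at 4.22% and 2.60%. Of the pairs with a peak, 246 (35.8%) held at least 1 of these 4. The NFY core CCAAT was at 44.2% and 34.8%, the SP/KLF core GGGCGG at 71.8% and 67.4%, the CRE core TGACGTCA at 3.78% and 3.01%, and the ZNF143 core ACTACAATT at 0.727% and 0.534%. The TATA core TATAAA was less frequent at pairs, with 2.62% and 4.08%. The octamer ATGCAAAT, the site of the pluripotency factor OCT4, was at 1.16% and 1.27%. The E-box CACGTG was at 8.72% and 9.76%, an order that turned when the window was 600 bp or was centred on the midpoint. A match is a string of letters and no measured binding.

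**Figure D5:**
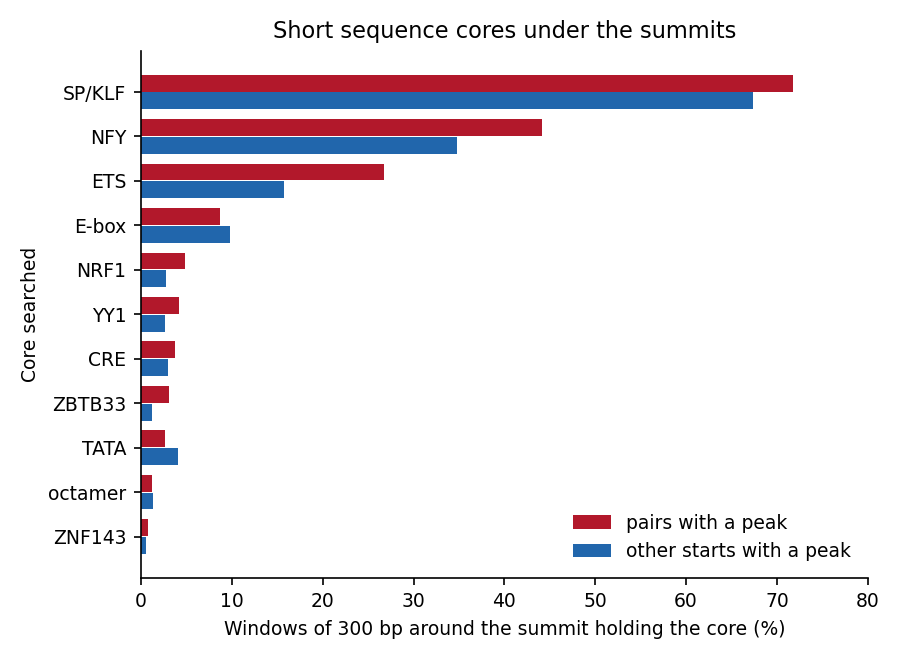
Share of 300 bp windows around the strongest summit that hold each core on either strand (x axis, percent), for pairs with a peak and other starts with a peak (y axis, core). The widest gap in percent is at ETS (26.7% and 15.8%), and TATA, E-box and octamer are lower at pairs.

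The number of CCAAT cores went with peak strength. Median fold enrichment was 9.46 at 384 pairs without a core, 11.5 at 166 pairs with 1, 13.0 at 71 pairs with 2 and 12.7 at 67 pairs with 3 or more, and the median fragment number was 39, 54.5, 65 and 64. The same count at other starts gave 7.88, 8.74, 10.3 and 11.6. Median GC content at these pairs was 65.3%, 62.7%, 64.3% and 58.0%, so it was lowest with 3 or more cores but did not fall evenly. Its part in the result was not tested. The number of GGGCGG cores at pairs showed no such order, with a median fold enrichment of 10.3, 10.7, 10.5 and 10.6 for 0, 1, 2 and 3 or more. At other starts, however, it gave 7.14, 8.68, 9.06 and 9.15. The number of ETS cores gave 10.5, 11.1, 11.0 and 16.3 at pairs, the last from only 5 pairs. It gave 8.12, 9.69, 10.1 and 11.3 at other starts. A rise with the number of cores was thus not particular to CCAAT.

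The lists of genes are to be read beside all protein-coding genes, of which 6.96% were in pairs, and beside all pairs, of which 93.7% had a peak with a median fold enrichment of 10.5. Most lists had a share with a peak near that of all pairs. Of 133 DNA repair genes, 42 (31.6%) belonged to 44 pairs, of which 41 had a peak, with a median fold enrichment of 12.1. Atm/Npat, a checkpoint kinase and an activator of histone genes, had 16.5, and Mcm4/Prkdc, a subunit of the replicative helicase and the kinase of end joining, had 14.4. Wrap53/Trp53 stood lowest. It joins a telomerase RNA-binding protein and the tumour suppressor p53, and had 2.76, 13 fragments (6.92 to 22.2) and a width of 337 bp. Brca1/Nbr1 and Pinlyp/Xrcc1 had no summit in the region, and the remaining pair lay over 10000 bp from any summit. At Brca1/Nbr1, a peak with a fold enrichment of 11.1 covered both starts, with its summit 606 bp from the nearest start. Of 58 DNA replication genes, 9 (15.5%) were in pairs and all 9 pairs had a peak, with a median of 13.5, from 10.1 at Dbf4/Slc25a40 to 17.96 at Trmt6/Mcm8.

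Mitochondrial genes differed among their lists. Of 102 genes of the respiratory chain and its assembly, 23 (22.5%) were in pairs, all with a peak and with a median fold enrichment of 12.2, from 5.38 at Gm27021/Cox4i1 to 19.97 at Esf1/Ndufaf5. Of 78 genes of the mitochondrial ribosome, 18 (23.1%) were in pairs, all with a peak and with a median of 9.97, from 3.62 at Eme2/Mrps34 to 17.9 at Mrpl32/Psma2, which joins it to the proteasome. All 5 pairs with a tRNA synthetase had a peak (median 13.5), with the lowest value, 8.58, at S100pbp/Yars. Mrps12/Sars2, a mitochondrial ribosomal protein with the mitochondrial seryl-tRNA synthetase, had 14.3 and 45 fragments (32.8 to 60.2). The 4 pairs with genes of mitochondrial import and chaperones had a median of 7.74, from 5.83 at Timm23/Parg to 10.8 at Sdhd/Timm8b.

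Other housekeeping lists differed in level. Of 80 cilium genes, 19 (23.8%) were in pairs, and all 19 pairs had a peak, with a median of 11.3, and they included the strongest pair, Rpgrip1l/Fto, and Arcn1/Ift46 with 5.38. Of 7 proteasome pairs, 6 had one (median 9.42), and the other lay over 10000 bp from any summit. Of the 8 pairs with a member of the list of 79 cytosolic ribosomal protein genes, 7 had a peak. Their median was low at 5.69, and their highest value, 8.54 at Rpl9/Lias, was below the median of all pairs. The list did not hold Rpl36al, a ribosomal protein gene by its symbol, and Rpl36al/Mgat2 had 13.6 with 88 fragments. Gart/Son, a trifunctional enzyme of purine synthesis and a splicing cofactor with starts 554 bp apart, had 11.3, with the summit 390 bp inside Son.

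Histone genes were the list with the largest share in pairs. Of 67 replication-dependent histone genes, 27 (40.3%) were in 14 pairs, of which 13 joined 2 histone genes. A peak was found at 11 of the 14, and 2 of the other pairs lay over 10000 bp from any summit. The 11 peaks had a low median fold enrichment of 6.40, from 4.57 at Hist1h2bf/Hist1h2ad to 11.4 at Hist1h2ac/Hist1h2bc, and a median width of 1155 bp. Their fragment numbers were not low. Apart from 11 at Hist1h2ba/Hist1h2aa, they ran from 36 to 72, against a median of 48 over all pairs. The background of the same peaks ran from 4.70 to 8.62, against a median of 3.54, so the low ratio goes with a high local background. Histone genes are near-identical copies, and reads that matched several places were set by the aligner at 1 of them, so the share of a single copy is uncertain.

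Of 385 zinc finger genes (Zfp), 20 (5.20%) were in pairs, near the 6.96% of all protein-coding genes. Of their 18 pairs, 16 had a peak, with a median of 12.3 and the highest value, 15.9, at Zfp654/Cggbp1. Only 1 of 1457 olfactory and vomeronasal receptor genes was in a pair, Nt5c3/Vmn1r4, and its peak had 17.9. None of 24 pluripotency genes was. Of the collagen genes, Col4a4/Col4a3, which encode chains of basement membrane collagen IV, had 6.65 with 20 fragments (12.2 to 30.9) and a summit 218 bp inside Col4a3. The list also took in Polk/Col4a3bp (12.8) by its symbol, although Col4a3bp encodes a ceramide transfer protein. These lists describe the 688 pairs and were compared with their median of 10.5 without a test.

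Of 35 genes of EHMT2 and its chromatin partners, 5 were in pairs, 4 of them with a peak. Ehmt2, the gene tagged in these cells, lies head to head with the complement gene C2 at 204 bp. The peak of C2/Ehmt2 had a fold enrichment of 3.33 with 13 fragments (6.92 to 22.2) over a background of 3.20, was 1051 bp wide and covered both starts, and its summit lay between them, 50 bp upstream of Ehmt2. It was the lowest of the 4. Setdb2/Cab39l, with a SET-domain methyltransferase gene, was the highest with 15.5. Slc27a5/Trim28, with the corepressor KAP1, had no summit in the region, its starts being 922 bp apart and the nearest summit 5764 bp away.

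The 46 pairs without a summit in the region fell into 3 kinds. Having no summit, they had their CpG ratio taken in the 300 bp around the midpoint between the starts. At 17, a peak with a fold enrichment from 5.00 to 13.8 overlapped the region with its summit outside it, up to 1086 bp from the nearest start, and the median CpG ratio was 0.898. Zfpl1/Cdca5, Taf6/Cnpy4, S100a1/S100a13, Acd/Pard6a and Deaf1/Tmem80 were of this kind. The peak covered both starts at each of them, so they were not without open chromatin. At 15, no peak overlapped and the nearest summit was at most 10000 bp away. The median CpG ratio was 0.206 there, and it was under 0.4 in 14 of the 15. At pairs with a peak, it was under 0.4 in 5 of 688, but with the window centred on the summit, so the windows were not placed alike. Best1/Rab3il1 and Rnf151/Rps2 belong here. The remaining 14 had no summit within 10000 bp, and 8 of them had a CpG ratio of at least 0.4. They include 3 of the 10 shortest pairs without a peak and are not described by gene, because a stretch without any row may be closed chromatin or a stretch not analysed here, which cannot be told apart. Without these 14, 95.6% of 720 pairs had a peak, and the counts by start were 1312 of 1420 for paired (92.4%) and 10857 of 16212 for other starts after the same omission.

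Starts with a noncoding or overlapping partner had a share with a peak and a fold enrichment between those of pairs and of lone starts. Of 752 protein-coding starts head to head with a long noncoding RNA within 1000 bp, 79.8% had a peak, with a median fold enrichment of 9.78. Of 871 whose 5′ end overlapped that of a gene on the other strand by at most 1000 bp, 76.9% had one, with 9.42. At 199 starts of pairs over 1000 and up to 2000 bp apart, 57.3% had a peak, with a median of 6.18. The 17537 starts without any such partner had 54.0% and 8.25, so pairs beyond 1000 bp had a like share and a lower level. For the paired starts within 1000 bp, the values were 90.6% and 10.7.

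Chromosome 8 stood somewhat apart in depth. Its 51 pairs with a peak had a median of 71 fragments over the summit and a background of 5.04, against 48 and 3.54 over all pairs, whereas its median fold enrichment was 11.5. It holds the strongest pair, Rpgrip1l/Fto, and both pairs of 1 bp. Without this chromosome, 93.4% of 682 pairs had a peak and the median fold enrichment was 10.5.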

How the data were processed

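ATAC-seq was done on 2 clones of EHMT2-dTAG mESCs treated with DMSO. Per the labels and methods, the authors merged technical replicates, aligned reads to mm10 with STAR 2.7.10, removed duplicates (Picard 2.26.0), corrected positions for the Tn5 cut and called peaks with MACS2 2.2.6. SAMtools 1.14 and bedtools 2.30.0 are also in the submitters' processing notes. The deposited list holds, per peak, a fold enrichment (a ratio), −log10 p-values and −log10 q-values of the summit, a summit position, and a deposited score equal to 10 times −log10 p, not used. The lowest −log10 q-value was 1.30.

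Fragment numbers were calculated from fold enrichment and p-value with the MACS2 formulas. They came out whole (tolerance 0.01) for 116778 of 116782 peaks and all 674 peaks of pairs, and 100% of 20000 simulated numbers were recovered. Library totals were not used here, and intervals (exact Poisson, 95%) cover counting error only. Gene starts and sequences were those of GENCODE vM21 and GRCm38.p6. Named pairs were the 5 of highest fold enrichment, the 5 widest, the 5 of largest summit distance, the 5 shortest with a peak, the 10 shortest without (predicted genes left out), the pairs of 17 fixed genes, of which 8 form a pair, the 2 nearest to 1000 bp on each side, and the highest and lowest of each list. Tomm6/Frs3 and pairs without a peak named with the lists were added after their values were seen. A few pairs that this rule names are not reported here. Pairs, lists and cores were chosen with earlier results of these data known. No test was run, since both clones are in 1 list. Alternatives were a stricter q-value, other distances, extensions, windows and gene sets. Python 3.11.15, NumPy 2.4.6, pandas 2.3.3, SciPy 1.17.1 and matplotlib 3.10.9 were used.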

Additional observations from a re-analysis of the deposited data

How the results depend on the processing

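Of 60 alternative values for 19 results, 44 stayed close to the reported value, 14 moved and 2 reversed. The share of pairs with a peak, 93.7%, was 83.0% with a −log10 q-value of at least 10, 89.2% and 96.2% with extensions of 250 and 1000 bp, and 96.0% when any overlap counted. It was 95.6% without the pairs whose nearest summit was over 10000 bp away, an alternative chosen after seeing the data. The 6 pairs with 2 peaks became 1 with the stricter q-value, 0 at starts at most 500 bp apart and 15 with an extension of 1000 bp. The median fold enrichment was 11.1 with the stricter q-value. Its ratio to other starts, 1.26, was 1.13 with the stricter q-value, 1.55 for fragments in place of fold enrichment and 1.197 against other starts in the same CpG bins, and stayed above 1 in each alternative run. The median CpG ratio, 0.857, was 0.826 in 600 bp. The ratio of pairs to other starts for the E-box, 0.893, reversed to 1.12 in 600 bp and 1.08 around the midpoint, and that for YY1, 1.62, was 2.44 around the midpoint. The causes were not tested. Leaving out chromosome 8 or predicted genes was run for the share with a peak, the number of peaks, the fold enrichment, its ratio and the summit position. It moved none of these beyond a 95% interval from the spread over pairs or, for the number of peaks, 1.5 times. The share of summits between the starts, 37.4%, was 37.6% for peak centres, also chosen after seeing the data. No paired analysis was possible because the list pools the clones, and for the same reason neither clone could be left out. A pair at the lowest fragment number, 6, cannot be told from one just under the calling threshold.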
